A study of Mus musculus with 6 samples.

Results

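The proteasome subunit genes were the 47 of 32285 genes in the deposited count matrices whose symbol is Psma, Psmb, Psmc, Psmd, Psme, Psmf or Psmg followed by a number, together with Pomp and without the immunoproteasome subunits Psmb8 and Psmb9. They comprise 14 subunits of the 20S core (7 of the alpha ring and 7 of the beta ring), 3 alternative core subunits, 17 subunits of the 19S regulatory particle (9 of the base and 8 of the lid), 3 chaperones of the regulatory particle, 4 genes of other activators, 1 inhibitor and 5 chaperones of the core. Their RNA was counted in single cells of dorsal skin from FVB wildtype male mice at p55 to p57. The skin was shaved and waxed, and cells were taken after this depilation at 0, 4 and 16 h and at 2, 4 and 6 d. At each time point cells of 2 mice were processed apart and mixed at equal numbers into 1 library made with the 10x Genomics 3' chemistry, so a time point is 1 sample, its mice cannot be separated, and time point and library cannot be told apart.

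The proteasome is the main protease of the cytosol and the nucleus. Proteins tagged with ubiquitin are bound and unfolded by the 19S regulatory particle, whose base holds a ring of ATPases and whose lid holds the subunit that removes the ubiquitin, and are cut inside the barrel of the 20S core, where the active sites sit on Psmb5, Psmb6 and Psmb7. Other activators can cap the barrel in place of the regulatory particle, and dedicated chaperones assemble both parts. In skin, hair follicle stem cells of the outer bulge (OB) rest for long stretches of the hair cycle and are activated when a new hair grows, also after plucking, whereas basal cells of the interfollicular epidermis (IFE.B) divide throughout life and give rise to suprabasal layers (IFE.SB). The comparisons below ask how the RNA of the proteasome genes differs between these cells and over the first days of hair regrowth.

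Of 61031 barcodes, 50502 cells were analysed, with 6520 to 11032 cells and 65783266 to 95703770 UMIs (unique molecular identifiers, 1 per counted RNA molecule) per library. Cells were clustered without the proteasome genes, and 430 barcodes occurred in more than 1 library. Each of the 14 clusters was named from marker genes, and the names stand for cell types rebuilt here: OB (380 to 2810 cells per library), the basal and suprabasal upper hair follicle (uHF.B and uHF.SB), IFE.B, IFE.SB, T cells, Langerhans cells, melanocytes, an inner bulge cluster (IB) and others. All 7 markers of the OB cluster counted as higher when it was named, although their sum was higher in IB than in OB cells in each library. Lhx2, Lgr5, Krt24 and Cd34 were among its leading genes, but also Col14a1. The OB cluster grew from 380 cells at 0 h to 2810 at 4 d. Levels are given in CPM, the UMIs of a gene per 1000000 UMIs of a cell type in a library. They are levels of RNA as a share of all RNA, and they count RNA ends, not gene length. Their 95% intervals are exact Poisson intervals, or exact binomial intervals for a fold, and cover counting error only, not the difference between mice. In the cells analysed Psmb11, the core subunit of thymus cells, had 15 UMIs and Psma8, the core subunit of testis, had 21, so 45 members had levels that could be followed.

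The 47 members are protein-coding genes on 16 chromosomes of the GRCm38 build. They do not form 1 locus, although Psme1 (chr14:55578123-55581529) and Psme2 (chr14:55587441-55591113) lie near each other. Nfe2l1, a membrane-bound factor, is known to drive proteasome genes when proteasomes are short, and it reads the antioxidant response element. The promoter table of RefSeq (GRCm38.p6, 250 bases before to 50 after the start site) held 39 members. The core of that element, TGACNNNGC on either strand, stood in the promoters of 6 of them (Psmb5, Psmb6, Psmc6, Psmd9, Psmd12 and Psme4), which is 15.4%, against 13.99% of all 27025 genes in the table. The CCAAT box, CCAAT on either strand, stood in 13 of 39, which is 33.3%, against 41.1%. Stretches upstream of the annotated transcripts are shown for the catalytic subunits Psmb5 and Psmb6, whose matches lie close to the start. They are also shown for Psmd11 and Psme3, which were among the members with the largest change at 4 h in OB cells. Each is written 5′ to 3′ on the strand of its gene, and capitals mark a match to either motif. None of these stretches overlaps an annotated exon of GENCODE M21. That of Psmb5 is chr14:54618023-54618095, reverse strand, that of Psmb6 is chr11:70525257-70525356, forward strand, that of Psmd11 is chr11:80428515-80428614, forward strand and that of Psme3 is chr11:101316113-101316212, forward strand.
Psmb5: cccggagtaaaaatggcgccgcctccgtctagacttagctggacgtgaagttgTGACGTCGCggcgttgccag
Psmb6: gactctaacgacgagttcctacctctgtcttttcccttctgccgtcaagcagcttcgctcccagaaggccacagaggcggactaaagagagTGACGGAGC
Psmd11: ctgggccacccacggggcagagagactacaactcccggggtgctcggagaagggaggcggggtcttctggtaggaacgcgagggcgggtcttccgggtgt
Psme3: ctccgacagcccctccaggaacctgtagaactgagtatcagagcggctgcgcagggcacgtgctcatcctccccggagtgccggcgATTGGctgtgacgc
The capitals in Psmb5 and Psmb6 are the response element core, those in Psme3 are the CCAAT box on the other strand, and the stretch of Psmd11 holds neither.

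In CPM, RNA of the core was lowest in resting skin in each of the 9 cell types with enough cells, although with TMM factors (a scaling that sets typical genes level between libraries) the log2 change of IFE.SB cells at 4 d was -0.0147. The core was 1.48 to 2.27 times as high at 4 h as at 0 h. The summed level of the 14 core subunits in OB cells was 1920.5, 3717, 4253, 3864, 5397 and 3516 CPM in time order (0, 4 and 16 h, then 2, 4 and 6 d), with all 5 libraries taken after depilation above 0 h and the 4 d library the highest. In IFE.B cells the same sum was 2354, 4599, 3462, 3015, 3217 and 2732, highest at 4 h and 1.16-fold (95% 1.15 to 1.18) of the 0 h level at 6 d. The 17 subunits of the regulatory particle summed to 1338, 2858, 2758, 2199, 3065 and 2194 in OB cells, where the 4 h, 16 h and 4 d libraries stood together above the rest. In IFE.B cells they summed to 1439.5, 3138, 2095, 1635, 1833 and 1664. At 4 h the regulatory particle was up 2.14-fold (95% 2.05 to 2.23) in OB and 2.18-fold (95% 2.15 to 2.21) in IFE.B cells, and the core 1.94-fold (95% 1.87 to 2.01) and 1.95-fold (95% 1.94 to 1.97). At 4 d the order was the other way round in OB cells, where the core was up 2.81-fold (95% 2.72 to 2.90) and the regulatory particle 2.29-fold (95% 2.21 to 2.38). With 1 library per time point, no test between 2 time points was possible.

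**Figure D1:**
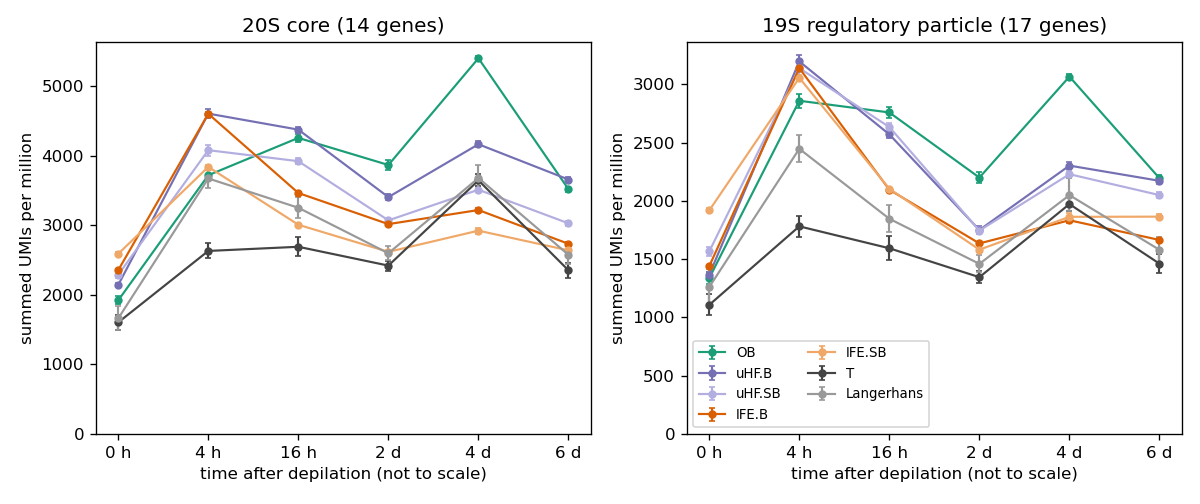
Summed level of the 20S core genes (left) and of the 19S regulatory particle genes (right), in CPM on linear axes, at the 6 time points (spaced evenly) in 7 cell types; each point is 1 library and bars are exact Poisson 95% intervals. Every line is higher at 4 h than at 0 h; the OB line stays high and reaches 5397 for the core at 4 d, while the IFE.B line falls from 4599 at 4 h to 2732 at 6 d.

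In OB cells, 32 of the 45 members with a mean of at least 10 CPM over the 6 libraries were up by 1.5-fold or more at 4 h, against 28.8% of all genes with such a level. The count was 43 of 45 at 16 h (all genes, 31.3%), 35 at 2 d (30.5%), 41 at 4 d (40.6%) and 35 at 6 d (32.2%). None was down by 1.5-fold at any of these times, whereas 28.8% of all genes were at 4 h. The median log2 change of the members ran from 0.81 at 4 h to 1.37 at 4 d, while that of all genes stayed between 0.03 and 0.35. Of the 14 core subunits, 12, 13, 11, 14 and 11 were past the fold from 4 h to 6 d in time order, and of the 17 subunits of the regulatory particle 15, 17, 12, 16 and 12.

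Among the catalytic subunits in OB cells, Psmb5, which carries the chymotrypsin-like activity, stood at 111, 294, 291, 246, 374 and 229 CPM in time order. All later libraries lay above 0 h, with the top at 4 d, 3.37-fold (95% 2.96 to 3.85). Psmb6, the caspase-like subunit, stood at 173, 403, 388, 264, 481 and 338, and Psmb7, the trypsin-like subunit, at 84.2, 132, 153, 120.4, 165 and 115. Psmb7 had the smallest fold of the catalytic subunits at 4 d, 1.96-fold (95% 1.69 to 2.29). In the rest of the core, Psma3 and Psma2, members of the alpha ring that gates the barrel, had with Psmb5 the largest changes at 4 h. Psma3 was at 163, 449, 388, 303, 500.4 and 308, and Psma2 was at 131, 354, 368, 285, 465 and 279. Psmb2 of the beta ring stood at 104, 269.9, 273, 259.7, 409 and 249.4, and its change at 4 d was the largest in the core, 3.92-fold (95% 3.43 to 4.49). The alpha subunit Psma7 stood at 182, 369, 469, 557, 645 and 389.6. At the low end were Psmb1, at 260.0, 265, 367, 348, 495 and 379, and Psma6, at 119, 143, 193, 172, 181 and 126. Psmb1 at 4 h was 1.02-fold (95% 0.916 to 1.14) of its 0 h level, and Psma6 was back near its 0 h level at 6 d, 1.06-fold (95% 0.924 to 1.22).

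In the regulatory particle, the ATPase Psmc2 of the base showed the widest swing in OB cells, at 40.5, 128, 146, 82.6, 173 and 97.0 CPM in time order. It was up 3.17-fold (95% 2.51 to 4.04) at 4 h and 4.27-fold (95% 3.46 to 5.34) at 4 d, with a dip at 2 d. Psmc4, another ATPase, also had its top at 4 d and a dip at 2 d, at 59.4, 176, 159, 109, 209 and 131. Psmd11, a scaffold subunit of the lid, had its top at 4 h instead, at 71.8, 222, 164, 138, 171 and 131. Psmd13 of the lid had its top at 4 d, at 51.5, 88.2, 133, 125, 172 and 102. The ATPase Psmc3 stood at 102, 159, 175, 148, 144 and 126 and Psmc1 at 44.6, 66.3, 87.1, 72.9, 80.5 and 59.3, both among the 3 smallest changes of the particle at 4 h and at 4 d. Psmd8 of the lid was up 1.40-fold (95% 1.21 to 1.63) at 4 h, the least in the particle, and Psmd4, a ubiquitin receptor, went from 129 at 0 h to 269 at 4 h and 216 at 4 d. At 4 h the log2 change ran from 0.49 to 1.66 in the particle and from 0.03 to 1.46 in the core.

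In OB cells a smaller share of the chaperones than of the subunits was past the fold at 4 h, and all of them were at 4 d. Of the 3 chaperones of the regulatory particle, 0 were past 1.5-fold at 4 h and 3 at 4 d. Psmd10 (gankyrin) stood at 20.7, 16.8, 35.2, 29.2, 47.6 and 33.7 CPM, with its lowest value at 4 h. Psmd5 stood at 13.3, 18.1, 26.9, 30.9, 39.7 and 25.6, and Psmd9 at 29.9, 42.7, 52.8, 51.8, 86.4 and 59.6. Of the 5 chaperones of the core, 2 were past 1.5-fold at 4 h and all 5 at 4 d. Pomp, which brings the beta ring together, stood at 151, 200.4, 294, 278, 420.0 and 267. Psmg1, which pairs with Psmg2 to build the alpha ring, stood at 16.6, 23.6, 39.7, 33.2, 70.3 and 33.3 and was up 4.24-fold (95% 3.05 to 6.08) at 4 d. Psmg2 stood at 29.0, 50.7, 43.9, 57.5, 75.1 and 51.0, and Psmg3 and Psmg4, which form the other pair, at 14.7, 36.2, 38.6, 32.9, 49.2 and 26.9 and at 40.0, 41.7, 76.0, 69.5, 79.1 and 68.6. Psmg3 alone of this pair was past 1.5-fold at 4 h.

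The other activators went separate ways. Psme3, the nuclear activator PA28 gamma, had a sharp early top in OB cells at 21.6, 68.2, 60.8, 45.2, 41.6 and 32.5 CPM, up 3.15-fold (95% 2.29 to 4.42) at 4 h. Psme1 and Psme2 encode the alpha and beta chains of PA28, which is known as an interferon-inducible cap of the immunoproteasome. Psme1 stood at 134, 97.9, 149.6, 115, 103 and 128 and was the only member over the level limit whose fold at 4 h had an interval wholly below 1, 0.731-fold (95% 0.621 to 0.862). Psme2 stood at 77.8, 119.6, 213, 126, 124 and 135, with its top at 16 h. Psmb10, the inducible catalytic subunit that replaces Psmb7 in the immunoproteasome, also had its top at 16 h, at 11.04, 15.2, 38.9, 18.3, 14.5 and 17.5, up 3.52-fold (95% 2.29 to 5.64). Psme4 (PA200) stood at 26.7, 44.9, 58.2, 50.3, 51.1 and 54.2, and Psmf1 (PI31), the inhibitor, at 12.4, 12.3, 20.4, 19.4, 16.0 and 14.4, where the change at 4 h was 0.989-fold (95% 0.588 to 1.68).

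**Figure D2:**
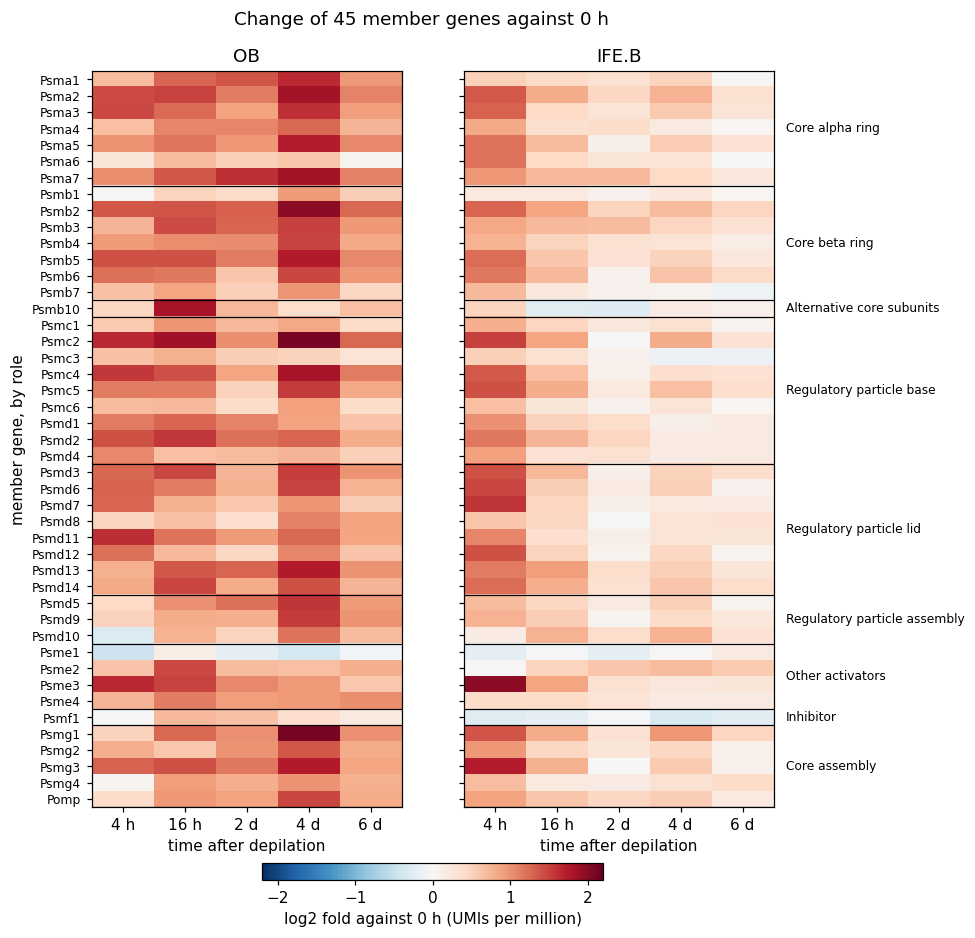
Log2 fold of 45 members against 0 h in CPM, at 5 time points in OB (left) and IFE.B cells (right), ordered by role; red is higher and blue lower than at 0 h. In OB cells nearly all members are red at all times and deepest at 4 d (up to 2.10), whereas in IFE.B cells the colour is deep at 4 h (up to 1.97) and pale from 2 d on.

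What the OB cluster held also changed over time. The summed level of 10 cell cycle genes in OB cells was 286, 121, 306, 2276, 3569.5 and 1804 CPM in time order, lowest at 4 h and highest at 4 d. The 7 OB markers summed to 15784, 5428, 7054, 5111, 3644 and 7046, the 6 IFE.B markers to 9126, 19695, 17640.0, 9385, 6587 and 8956, the 7 IFE.SB markers to 4362, 7529, 3668, 2226, 1033 and 2203 and the 4 IB markers to 482, 3585, 1422, 358, 297 and 283, with the last at its top at 4 h. The 6 uHF.B markers summed to 3743.5, 9100, 4398, 4429, 5210.5 and 6218 in OB cells, above their sum in uHF.B cells in each library. The 7 T cell markers summed to 8.37 to 24.6. The part of these shifts in the proteasome levels was not tested. The 7 OB markers summed higher in IB than in OB cells in each library, to 27370 at 0 h and 8583 at 4 d. At 4 d their sum was also higher in IFE.B (5366.5) and uHF.B cells (5035) than in OB cells. When clusters were cut more finely, a choice made after the data were seen, the cluster of Cd34 and Krt24 held 221 to 723 cells per library, and in it 27, 42, 19, 33 and 22 of 45 members were past 1.5-fold from 4 h to 6 d in time order. Of all genes there, 28.2%, 29.6%, 21.9%, 33.7% and 25.4% were past it. Its summed member level was up by 0.89 at 4 h and 0.81 at 4 d on the log2 scale, against 0.93 and 1.33 in the whole OB cluster. Compared with the whole cluster, the finer one had a like change at 4 h and a smaller one at 4 d.

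Levels in IFE.B cells were as far above 0 h at 4 h and then came down. At 4 h, 36 of 45 members were up by 1.5-fold or more (all genes, 30.9%) and none was down by that much (all genes, 25.6%). At 16 h the count was 19 (all genes, 19.6%), at 2 d 3 (6.69%), at 4 d 9 (11.9%) and at 6 d 0 (4.22%). At 2 d these included 2 core subunits and no subunit of the regulatory particle. At 16 h, 7 of 14 core subunits and 7 of 17 subunits of the regulatory particle were past the fold. All 8 lid subunits were past the fold at 4 h, led by Psmd7 at 119.96, 358, 166, 131, 139.8 and 136 and Psmd6 at 70.9, 196, 104, 81.8, 101 and 75.6 CPM. Psmb5 stood at 152, 355, 233, 189, 216 and 178, Psmb6 at 169.7, 381, 277, 181, 262 and 226 and Psmb7 at 101, 166, 119, 108, 107 and 93.3, each highest at 4 h. The core subunit with the smallest change was again Psmb1, at 336, 392, 391, 358, 392 and 348. All 5 chaperones of the core were past the fold at 4 h in these cells, with Psmg3 at 16.2, 53.5, 28.0, 16.2, 24.3 and 17.6 and Pomp at 177, 329, 271, 243, 258 and 206. Psme3 stood at 21.4, 83.7, 38.9, 27.0, 25.5 and 25.5, up 3.92-fold (95% 3.58 to 4.30) at 4 h, the largest change of any member in these cells. Psme1 stood at 171, 149, 166, 148, 173 and 196 with 0.872-fold (95% 0.837 to 0.908) at 4 h. Psme2 stood at 199, 202, 279, 305, 321 and 296, with its top at 4 d, and Psmf1 at 16.2, 13.5, 14.1, 15.7, 12.8 and 13.8. Cell cycle genes in IFE.B cells summed to 1451, 375, 2228, 1618, 2109.7 and 1719 and were lowest at 4 h.

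An early rise was also seen in other cell types, to different extents. At 4 h, 40 of 45 members were up by 1.5-fold in uHF.B cells (all genes, 32.9%) and 34 of 45 in their suprabasal neighbours, uHF.SB (33%). The same held for 28 of 45 in IFE.SB cells (31.6%), 30 of 45 in T cells (39.1%) and 32 of 44 in Langerhans cells (34%). Of the 2 clusters within IFE.SB, the spinous one had 35 of 45 members up (all genes, 35.6%). The granular one had 14 of 45 (28.2%), a share near that of all genes. In IB cells 29 of 45 were up (32.5%) and 3 down (27.0%), and in melanocytes 31 were up (40.9%) and 3 down (23.3%). In Langerhans cells 1 was down (23.0%). The core was up 2.15-fold (95% 2.10 to 2.19) in uHF.B cells, 1.48-fold (95% 1.47 to 1.498) in IFE.SB cells, 1.64-fold (95% 1.52 to 1.77) in T cells, 2.21-fold (95% 1.98 to 2.47) in Langerhans cells and 2.27-fold (95% 1.89 to 2.75) in melanocytes. All of these folds share the 0 h library, which held 42 Langerhans cells and 29 melanocytes. In melanocytes the 6 IFE.B markers summed to 4195 CPM at 0 h and 1142 at 4 h, and the 7 melanocyte markers to 4182 and 5791. The part of this shift in the melanocyte fold was not tested. Against the 6 d library in place of 0 h, 5 of 45 members in OB cells (all genes, 18.1%) and 33 of 45 in IFE.B cells (all genes, 28.3%) were higher at 4 h by 1.5-fold, a comparison added after the data were seen. At 6 d the core stood at 1.71-fold (95% 1.68 to 1.74) in uHF.B cells and at 1.83-fold (95% 1.77 to 1.89) in OB cells, but at 1.02-fold (95% 1.01 to 1.03) in IFE.SB cells. In IFE.SB cells the regulatory particle summed to 1917, 3055, 2103, 1581, 1863 and 1864 CPM, with its lowest value at 2 d, below that at 0 h. With TMM factors its log2 change against 0 h was -0.20 at 2 d and 0.06 at 6 d. The core of T cells summed to 1604, 2629.8, 2689.6, 2419, 3643 and 2351 and had its top at 4 d, when the cycling genes in T cells were also at their highest (578, 802, 614, 866, 2854 and 1533). The T cells joined 2 clusters, of which the smaller, led by genes such as Icos, Il7r and Ltb, held 7 of 214 cells at 0 h, 127 of 754 at 4 d and 58 of 291 at 6 d. In the larger cluster alone, read after the data were seen, the core summed to 1600.2, 2577, 2662, 2368, 3609 and 2259, also with its top at 4 d.

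A smooth time course was tested in each of 5 epithelial cell types with edgeR's quasi-likelihood test on a spline of hours, with 2 residual degrees of freedom. It called 0 of 45 members in OB, uHF.B, uHF.SB, IFE.B and IFE.SB cells at an adjusted p of 0.05, and 0% of all genes in each of the 5. At an unadjusted p under 0.05 it also had 0 members in each, with 1075 of 11397 genes in OB and 87 of 12938 in IFE.B cells. DESeq2 called 0 members in all 5, and 588 genes in OB cells. The smallest unadjusted p of a member in OB cells was 0.148, for Psmb10 (adjusted p = 0.848). On a scale of log2(hours + 1), edgeR called 1154 genes in OB cells and again 0 members, with Psme3 at an adjusted p of 0.102. On that scale 7 of 45 members of uHF.B cells (all genes, 20.1%) and 5 of 45 of uHF.SB cells (all genes, 20.2%) had an unadjusted p under 0.05, shares below those of all genes. These values do not show that the levels at 4 h and 0 h were alike.

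Differences between cell types could be tested, since each library holds all of them: the 6 libraries were the replicates and the library was a block in 1 edgeR quasi-likelihood fit over 9 cell types and 13445 genes, with 46 members tested. The log2 changes of this fit use TMM scaling factors, which the printed levels do not, so the 2 can differ in sign. Between OB and IFE.B cells, 0 members were higher (all genes, 17.8%) and 4 were lower (all genes, 18.6%). At an unadjusted p under 0.05, 0 were higher and 6 lower, and DESeq2 called 5 higher and 4 lower. The 4 were both chains of PA28, the inducible subunit Psmb10 and the core subunit Psmb1. Psme2 stood at 77.8, 119.6, 213, 126, 124 and 135 CPM in OB cells and at 199, 202, 279, 305, 321 and 296 in IFE.B cells in time order. It was lower in OB cells in 6 of 6 libraries, with a log2 change of -1.32 ± 0.17 (SE, adjusted p = 5.42e-09), although the ranges over libraries overlap. Psme1 was also lower in 6 of 6 libraries (-0.76 ± 0.13, adjusted p = 3.54e-06), Psmb10 in 5 of 6 (-0.72 ± 0.23, adjusted p = 0.011) and Psmb1 in 4 of 6 (-0.40 ± 0.12, adjusted p = 0.0051). Psmb5 (-0.10 ± 0.15), Psmb6 (0.15 ± 0.12) and Psmb7 (-0.15 ± 0.12) did not pass. In the core the log2 change was lowest for Psmb1 (-0.40 ± 0.12), Psmb2 (-0.30 ± 0.13) and Psmb7 (-0.15 ± 0.12) and highest for Psmb6 (0.15 ± 0.12), Psma7 (0.04 ± 0.14) and Psma1 (-0.01 ± 0.12). In the regulatory particle it was lowest for Psmd8 (-0.27 ± 0.15), Psmd11 (-0.21 ± 0.13) and Psmd2 (-0.10 ± 0.16) and highest for Psmd7 (0.21 ± 0.14), Psmc3 (0.21 ± 0.13) and Psmc4 (0.18 ± 0.14). With library totals alone 12 members were higher (all genes, 31.3%) and 2 lower (all genes, 10.4%), and with the size factors of DESeq2 4 were higher and 4 lower. The median change of the members was -0.03 against -0.03 over all genes tested with TMM factors and 0.27 against 0.27 over all genes tested with library totals, the same as that of all genes under both. Psme1 and Psme2 were lower under each of the 3 scalings.

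The difference was not the same in all libraries, and its sign depended on the scaling. In CPM, the summed member level of OB against IFE.B cells, on the log2 scale, was -0.25, -0.27, 0.30, 0.32, 0.65 and 0.30 in time order (0, 4 and 16 h, then 2, 4 and 6 d), below 0 in the first 2 libraries and above 0 in the other 4. For the core it was -0.29, -0.31, 0.30, 0.36, 0.75 and 0.36, and for the regulatory particle -0.11, -0.13, 0.40, 0.43, 0.74 and 0.40. With the TMM factors of the fit the difference for all members was -0.49, -0.31, 0.03, -0.13, 0.31 and -0.13, so that 2 libraries, 16 h and 4 d, stood above 0. The 0 h and 4 h libraries were below 0 and the 4 d library was the highest under both scalings.

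Between uHF.B and IFE.B cells no member passed in either direction, where 9.76% of all genes were higher and 10.7% lower. At an unadjusted p under 0.05, edgeR had 3 higher and 1 lower, and DESeq2 called 5 higher and 0 lower. With library totals alone 4 were higher (all genes, 11.8%) and 0 lower (all genes, 8.42%). The fitted log2 changes ran from -0.13 to 0.28 in the core and from -0.15 to 0.26 in the regulatory particle. In the core the log2 change was lowest for Psmb1 (-0.13 ± 0.12), Psmb2 (-0.06 ± 0.13) and Psmb7 (0.03 ± 0.12) and highest for Psma7 (0.28 ± 0.14), Psma5 (0.19 ± 0.16) and Psma1 (0.17 ± 0.12). In the regulatory particle it was lowest for Psmd8 (-0.15 ± 0.15), Psmc1 (-0.07 ± 0.13) and Psmd4 (-0.04 ± 0.10) and highest for Psmd7 (0.26 ± 0.14), Psmc3 (0.26 ± 0.13) and Psmc4 (0.25 ± 0.14). Psme1 and Psme2 did not pass here, at -0.11 ± 0.13 (adjusted p = 0.63) and -0.36 ± 0.16 (adjusted p = 0.12). In CPM, Psme2 was still lower than in IFE.B cells in 6 of 6 libraries, as it was in OB cells, and Psme1 in 3 of 6. The difference between the contrasts was not tested.

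In the suprabasal epidermis the share of members called higher was near that of all genes. In IFE.SB against IFE.B cells, 9 of 46 members were higher (all genes, 20.7%) and 5 lower (all genes, 23.1%). The 9 were subunits of the regulatory particle, 5 of the base and 4 of the lid, and 0 of 14 core subunits passed in either direction. The particle was not tested against the core, and in the spinous part of these cells 0 members were higher. The ATPase Psmc5 led them, at 184, 264, 190.4, 127, 182 and 175 CPM in IFE.SB cells and 87.9, 231, 155, 102, 139 and 114 in IFE.B cells, higher in 6 of 6 libraries by 0.70 ± 0.14 (adjusted p = 4.30e-05). It was followed by the lid subunits Psmd7 (0.54 ± 0.14, adjusted p = 9.55e-04) and Psmd13 (0.50 ± 0.18, adjusted p = 0.017), of which Psmd7 was higher in 5 of 6 libraries and Psmd13 in 6 of 6. Psmd3, Psmc2, Psmd2, Psmc1, Psmd8 and Psmd1 also passed. The smallest values of the particle were those of Psmd12 (-0.14 ± 0.13), Psmd4 (0.01 ± 0.10) and Psmc6 (0.03 ± 0.10). In the core the log2 change was lowest for Psma5 (-0.09 ± 0.16), Psma4 (-0.05 ± 0.14) and Psmb6 (-0.02 ± 0.12) and highest for Psma1 (0.26 ± 0.12), Psma7 (0.24 ± 0.14) and Psma6 (0.19 ± 0.14). Psmb5 was at 0.13 ± 0.15 and Psmb7 at 0.09 ± 0.12. The 5 that were lower were the core chaperones Psmg2 (-0.50 ± 0.14) and Psmg4 (-0.55 ± 0.18), and Psme1 (-0.31 ± 0.13), Psme2 (-0.47 ± 0.16) and Psmb10 (-0.57 ± 0.22), each lower in 6 of 6 libraries. Pomp missed the threshold (0.31 ± 0.14, adjusted p = 0.07).

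The suprabasal counts changed with the scaling, with the library block, with single libraries and with the layer. With library totals alone 2 members were higher (Psmc5 and Psmd7; all genes, 15.5%) and 6 lower (all genes, 32.2%), and without the block 1 was higher and 1 lower, while the median change of the members was 0.11 against -0.05 over all genes tested with TMM factors and -0.08 against -0.23 over all genes tested with library totals. Without the 0 h library 2 members were higher, without 2 d 5 and without 6 d 3. The IFE.SB class joined a spinous cluster and a granular one led by Lor and the Lce1 genes, whose cells had a median of 31478 UMIs. These were then fitted apart, a fit added after the data were seen. In it the granular cells had 17 of 46 members higher (all genes, 27.4%) and 5 lower (all genes, 33%) than IFE.B cells. Among the 17 were Psmc5 at 1.12 ± 0.15 and Psmd13 at 0.95 ± 0.18. They also included the core subunit Psma7 (0.40 ± 0.15, adjusted p = 0.017) and the chaperone Psmd9 (0.52 ± 0.13). The spinous cells had 0 higher (all genes, 11.5%) and 1 lower (all genes, 16.1%), which was Psmb10 (-0.61 ± 0.22). In CPM the summed regulatory particle of granular against spinous cells, on the log2 scale, was 0.73, -0.03, 0.01, 0.09, 0.27 and 0.41 in time order and the core 0.24, -0.21, -0.22, -0.11, -0.17 and 0.06, and the 0 h library held the widest gap for both. The regulatory particle of IFE.SB against IFE.B cells was 0.41, -0.04, 0.01, -0.05, 0.02 and 0.16, and the core 0.14, -0.26, -0.20, -0.20, -0.14 and -0.05. With the TMM factors of the fit these were 0.67, 0.04, 0.17, 0.13, 0.14 and 0.53 and 0.39, -0.18, -0.04, -0.03, -0.03 and 0.32. In uHF.SB against uHF.B cells, 2 members were higher (all genes, 18.4%) and 2 lower (all genes, 20.5%). These were the ATPases Psmc5 (0.35 ± 0.14, adjusted p = 0.042) and Psmc1 (0.35 ± 0.13, adjusted p = 0.034), and on the lower side Psmg4 (-0.73 ± 0.18, adjusted p = 0.0013) and Psmg2 (-0.50 ± 0.14, adjusted p = 0.0033). With library totals alone 0 were higher (all genes, 14.5%) and 4 lower (all genes, 26.3%), and the higher count was 0 without the 16 h, the 2 d or the 6 d library.

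**Figure D3:**
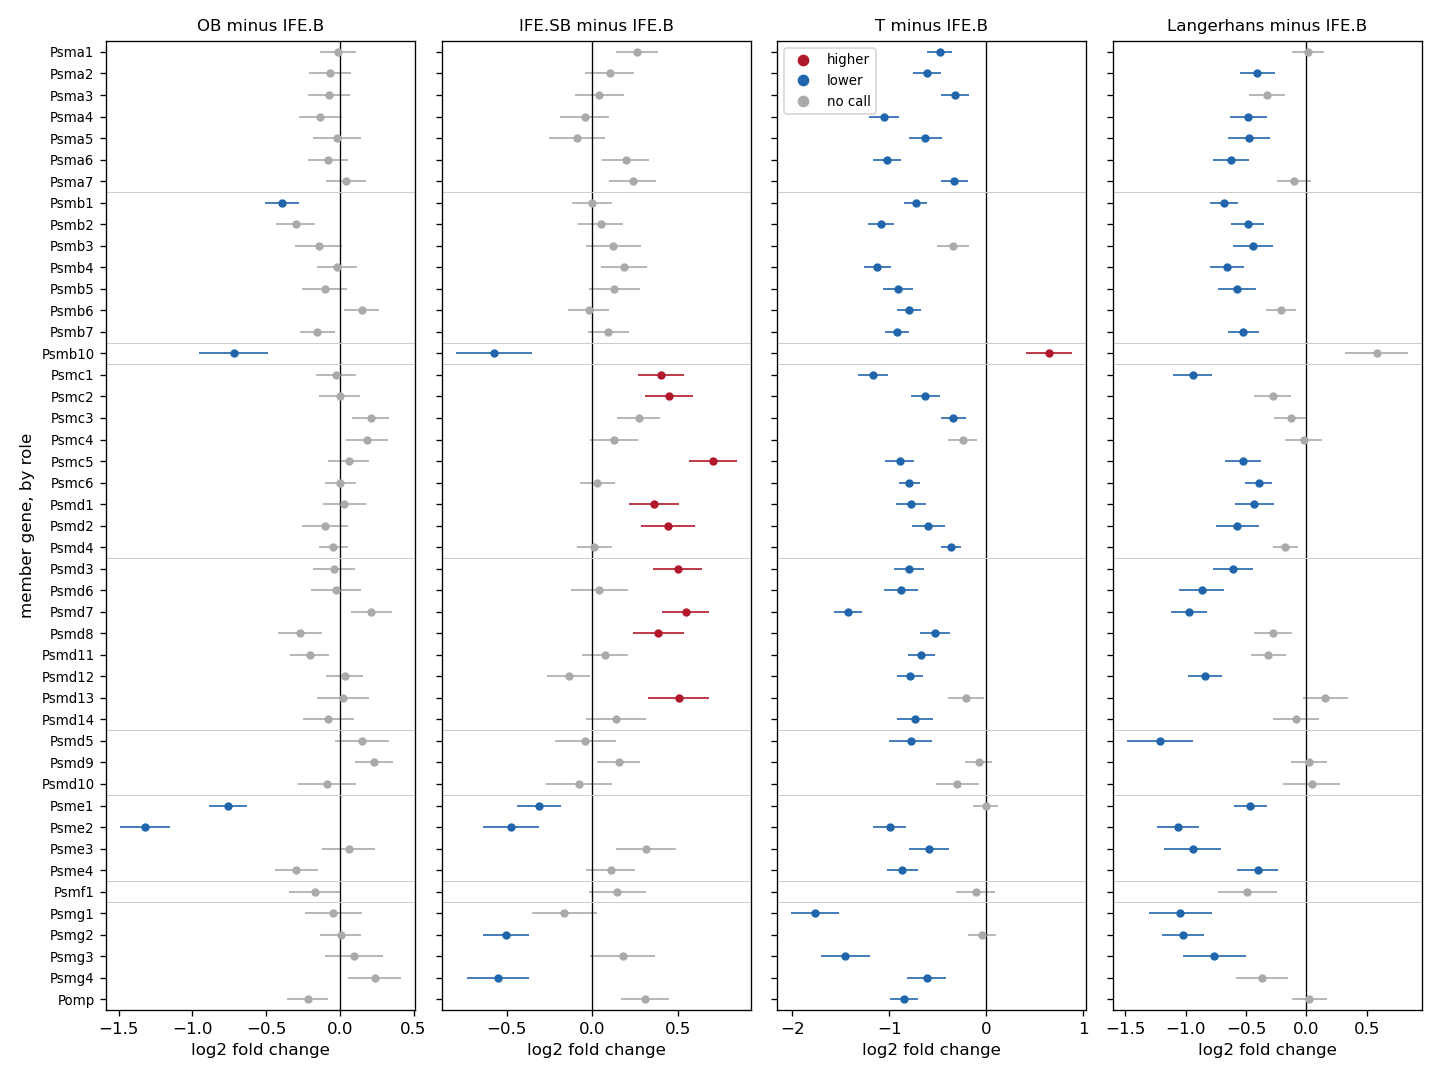
Log2 fold change of 45 members in 4 contrasts between cell types (a linear axis per panel), as points with standard errors from the edgeR fit over 6 libraries; red and blue mark members past an adjusted p of 0.05. In IFE.SB cells the 9 red points are all subunits of the regulatory particle, and in T cells Psmb10 is the only red point and the other points lie at or below 0.

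Proteasome RNA was a smaller share of all RNA in T cells than in IFE.B cells in 5 of 6 libraries. Scaled with the TMM factors of the fit, which gives no share of all RNA, its level was lower in 6 of 6. In CPM, the summed member level of T against IFE.B cells, on the log2 scale, was -0.50, -0.76, -0.34, -0.31, 0.17 and -0.20 in time order, above 0 at 4 d alone, and with TMM factors it was -0.69, -1.12, -0.83, -0.67, -0.21 and -0.51. In T cells 36 members were lower (all genes, 35.9%) and 2 higher (all genes, 27.8%). Psmd7 stood at 57.8, 86.3, 85.4, 72.2, 95.6 and 66.6 CPM in T cells and at 119.96, 358, 166, 131, 139.8 and 136 in IFE.B cells, levels that do not overlap, and changed by -1.43 ± 0.15 (adjusted p = 5.45e-12). The core chaperone Psmg1 changed by -1.76 ± 0.25 (adjusted p = 2.16e-08), Psmb4 by -1.12 ± 0.14 (adjusted p = 1.03e-09), Psmb5 by -0.91 ± 0.16 and Psmb6 by -0.80 ± 0.12. Psmb10 was the exception, at 29.8, 49.98, 73.2, 31.3, 84.7 and 42.8 in T cells, higher in 6 of 6 libraries by 0.65 ± 0.24 (adjusted p = 0.016). That call was lost without the 16 h or the 4 d library, when 0 members were higher. Psme1 did not pass (adjusted p = 0.98) and Psme2 was lower (-0.996 ± 0.17, adjusted p = 1.35e-06). The other higher call, Psma8, had 1 UMI in T cells in all and none in IFE.B cells, under the floor of 3 counts. In the core the log2 change was lowest for Psmb4 (-1.12 ± 0.14), Psmb2 (-1.09 ± 0.14) and Psma4 (-1.06 ± 0.15) and highest for Psma3 (-0.32 ± 0.14), Psma7 (-0.33 ± 0.14) and Psmb3 (-0.34 ± 0.16). In the regulatory particle it was lowest for Psmd7 (-1.43 ± 0.15), Psmc1 (-1.17 ± 0.15) and Psmc5 (-0.89 ± 0.15) and highest for Psmd13 (-0.21 ± 0.18), Psmc4 (-0.24 ± 0.15) and Psmc3 (-0.34 ± 0.13). With library totals alone 22 members were lower (all genes, 25.8%) and 3 higher (all genes, 36.2%), and the members' median was -0.70 against -0.19 over all genes tested with TMM factors and -0.35 against 0.15 over all genes tested with library totals.

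In CPM, the summed member level of Langerhans against IFE.B cells, on the log2 scale, was -0.35, -0.31, -0.13, -0.19, 0.14 and -0.14 in time order, also above 0 at 4 d alone, and with TMM factors it was -0.65, -0.41, -0.40, -0.48, -0.25 and -0.30, below 0 in 6 of 6 libraries. In Langerhans cells 27 members were lower (all genes, 33.5%) and 1 higher (all genes, 21.7%). The higher call was Psma8, with 0, 0, 1, 3, 3 and 3 UMIs in time order and 0 in IFE.B cells. These counts are at or under the floor of 3 counts in each library, so the call is not read as a difference. Among the lower ones, Psmd5, a chaperone of the regulatory particle, changed by -1.21 ± 0.27 (adjusted p = 1.79e-04), Psme2 by -1.06 ± 0.17 (adjusted p = 8.96e-07) and Psmg2 by -1.02 ± 0.17 (adjusted p = 2.08e-06). Psmb5 changed by -0.58 ± 0.16 (adjusted p = 0.0017) while Psmb6 (-0.21 ± 0.12) and Pomp (0.02 ± 0.14) did not pass. Psmb10 stood at 50.1, 68.1, 66.0, 36.5, 31.6 and 21.2, higher than in IFE.B cells in 5 of 6 libraries, and missed the threshold (0.58 ± 0.26, adjusted p = 0.054). In the core the log2 change was lowest for Psmb1 (-0.68 ± 0.12), Psmb4 (-0.65 ± 0.14) and Psma6 (-0.62 ± 0.15) and highest for Psma1 (0.01 ± 0.13), Psma7 (-0.11 ± 0.14) and Psmb6 (-0.21 ± 0.12). In the regulatory particle it was lowest for Psmd7 (-0.97 ± 0.15), Psmc1 (-0.94 ± 0.16) and Psmd6 (-0.87 ± 0.19) and highest for Psmd13 (0.16 ± 0.19), Psmc4 (-0.02 ± 0.15) and Psmd14 (-0.09 ± 0.19). With library totals alone 12 were lower (all genes, 25.5%) and 2 higher (all genes, 26.7%), and with the size factors of DESeq2 18 were lower and 2 higher, Psmb10 being called in both. The median T cell held 2020.0 to 2702 UMIs and the median Langerhans cell 3488 to 5054, against 6112 to 10993 in IFE.B cells. The part of this depth gap in the differences was not tested.

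**Figure D4:**
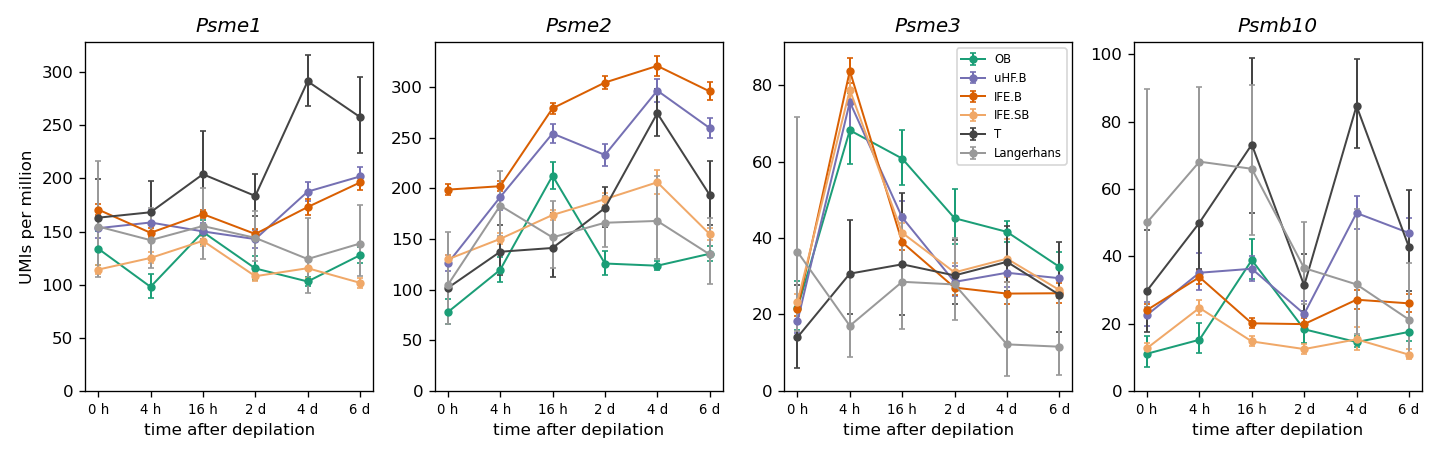
Levels of Psme1, Psme2, Psme3 and Psmb10 in CPM (linear axes from 0) at 6 time points in 6 cell types; each point is 1 library with its exact Poisson 95% interval. Psme3 peaks at 4 h in the 4 epithelial cell types, Psme2 is highest in IFE.B cells at all times, and Psmb10 reaches 84.7 in T cells at 4 d.

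Genes that work with the proteasome but lie outside the naming rule were read from a list of 26. In OB cells 13 of 25 with a sufficient level were up by 1.5-fold at 4 h (all genes, 28.8%) and 3 down (all genes, 28.8%). In IFE.B cells 13 of 26 were up (all genes, 30.9%) and 4 down (all genes, 25.6%). Usp14, a deubiquitinase that docks on the base, stood at 32.7, 97.0, 86.4, 84.6, 79.5 and 63.3 CPM in OB cells, and Adrm1, a ubiquitin receptor of the base, at 47.9, 126, 109, 82.4, 101 and 80.3. Uchl5, the deubiquitinase bound by Adrm1, stood at 24.6, 81.9, 55.5, 24.7, 43.3 and 34.0 in IFE.B cells. Nfe2l1 stood at 115, 92.4, 89.2, 62.9, 38.4 and 63.9 in OB cells, lowest at 4 d, when the summed member level was highest. In IFE.SB against IFE.B cells 9 of 26 partners were higher (all genes, 20.7%) and 2 lower (all genes, 23.1%). Among them were Ddi2, the protease that activates Nfe2l1, with a log2 change of 1.40 ± 0.16 (adjusted p = 3.38e-10), and Nfe2l1 itself, with 0.95 ± 0.17 (adjusted p = 8.73e-06). In uHF.SB against uHF.B cells Ddi2 was higher by 1.10 ± 0.16 (adjusted p = 2.82e-07) and Nfe2l1 by 0.91 ± 0.17 (adjusted p = 3.08e-05).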

How the data were processed

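Per the file headers and the submitters' processing notes, the authors made the deposited UMI count matrices with Cell Ranger 6.1.2 on mm10, and they hold raw counts per gene and barcode with no normalization; other steps before deposit are not given in the sources used here. One matrix was analysed per time point, 6 in all. Barcodes with 500 to 7000 genes and at most 10% mitochondrial counts were kept, and the highest Scrublet scores (scanpy 1.11.5, 0.8% per 1000 barcodes) were removed as doublets. Cells were clustered with Seurat 5.3.0 (RPCA integration, 2000 variable genes, 30 principal components, resolution 0.2). The clustering left out 518 genes. These were the proteasome genes, their partners, cell cycle genes and genes correlated above 0.2 with the mean of the cell cycle genes. Clusters were named from at least 3 markers. UMIs were summed per library and cell type, and all cell types with at least 20 cells in every library (9) entered the fits.

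Between cell types, sums were tested with edgeR 4.0.16 (limma 3.58.1, R 4.3.3; robust quasi-likelihood F test, TMM factors, filterByExpr, library as a block, Benjamini-Hochberg adjustment over all genes tested, threshold 0.05). The time course used a natural spline (cubic, 3 degrees of freedom) of the hours. Levels over time had no test. A change of 1.5-fold was counted among genes with a mean of at least 10 CPM. Alternatives were DESeq2 1.42.0, its size factors, library totals, no filter, doublets kept, a mitochondrial limit of 5%, other time scales, no library term, TMM factors for the levels and each library left out. Summed differences between cell types with the TMM factors of the fit were added after the data were seen. The fitting steps were tested on simulated data. Promoters were searched with Python 3.11.15.

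The members and gene lists were chosen with earlier results of these data known. Values were printed for the catalytic subunits, for the 3 largest and 3 smallest changes of the core and of the regulatory particle in a comparison, for the activators, inhibitor and core chaperones, and for up to 6 partners. Psmd5, Psmd9 and Psmd10 and the other members past the test were named after their values were seen. Each sample pools 2 mice, so p-values measure the spread between libraries that also differ in time point. Precision is limited by 65783266 to 95703770 UMIs per library in the analysed cells.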

Additional observations from a re-analysis of the deposited data

Results flagged for a closer look

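In CPM against 0 h, on the log2 scale, the summed level of the regulatory particle genes had opposite signs in IFE.SB and OB cells at 3 time points, and with TMM factors within each cell type at 2 of them. At 2 d it was -0.28 in IFE.SB cells (95% -0.30 to -0.26) and 0.72 in OB cells (95% 0.66 to 0.78), and with TMM factors -0.20 and 0.63. At 4 d it was -0.0417 in IFE.SB cells (95% -0.07 to -0.01) and 1.196 in OB cells (95% 1.14 to 1.25), and with TMM factors -0.23 and 1.03. At 6 d it was -0.0406 in IFE.SB cells (95% -0.06 to -0.02) and 0.71 in OB cells (95% 0.66 to 0.77), and with TMM factors both were above 0, at 0.0575 and 0.56. The difference was not tested, since each time point is 1 library, and the intervals cover counting error only. The IFE.SB class joins 2 clusters, which did not move alike. At 2, 4 and 6 d the median log2 change of the 45 members was 0.11, 0.38 and 0.14 in spinous cells. In granular cells it was -0.21, -0.06 and -0.15.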

How the results depend on the processing

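Counts of members called between cell types changed with the scaling, the tool, the library block, single libraries and the layer. For OB against IFE.B cells, 0 were higher and 4 lower, against 12 and 2 with library totals alone, 4 and 4 with the size factors of DESeq2, and 5 and 4 with DESeq2. With each library left out, 0 to 2 were higher, 1 without 0 h and 2 without 4 h. For uHF.B against IFE.B cells, 0 were higher, against 4 with library totals, 1 with size factors, 5 with DESeq2, and 0 to 1 with each library left out (1 without 0 h or without 4 h), and 0 were lower, with 0 to 1 on leaving out each library (1 without 4 h). For IFE.SB against IFE.B cells, 9 were higher, against 2 with library totals, 0 in spinous cells and 17 in granular cells, and 5 were lower, against 1 in spinous cells. Leaving out each library gave 2 to 11 higher (2 without 0 h, 5 without 2 d, 3 without 6 d) and 3 to 5 lower (3 without 6 d). For uHF.SB against uHF.B cells, 2 were higher, against 0 with library totals, 0 with no filter, 0 with doublets kept and 4 with DESeq2, and 0 to 5 with each library left out (0 without 16 h, 2 d or 6 d, 1 without 0 h, 5 without 4 h). There 2 were lower, against 4 with library totals. For T cells, 2 were higher, against 1 with no filter and 1 with DESeq2, and 0 to 2 with each library left out, 0 without 16 h or 4 d, where the call of Psmb10 was lost, and 1 without 4 h, 2 d or 6 d. The 36 lower were 22 with library totals. For Langerhans cells, 1 was higher, against 2 with library totals, size factors or doublets kept, and 0 to 1 with each library left out (0 without 16 h or 2 d). The 27 lower were 12 with library totals.

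Without the library as a replicate block the counts were 2 lower for OB, 1 higher and 1 lower for IFE.SB, 0 higher for uHF.SB, 1 higher for T, and 0 higher and 15 lower for Langerhans cells. No time course setting called a member. Of 45 members in OB cells, those past 1.5-fold at 4 h were 32, and 5 against 6 d in place of 0 h. In the Cd34 cluster 19 were past it at 2 d and 22 at 6 d, against 35 and 35. In IFE.B cells TMM factors gave 7 at 2 d and 1 at 6 d, against 3 and 0, and doublets kept gave 14 at 4 d, against 9. With TMM factors within a cell type, 2 summed changes against 0 h turned sign, both in IFE.SB cells: the core at 4 d (-0.0147, against 0.17 in CPM) and the regulatory particle at 6 d (0.0575, against -0.0406). With library totals the members' median log2 change between cell types also turned sign, from -0.03 to 0.27 for OB against IFE.B cells and from 0.11 to -0.08 for IFE.SB against IFE.B cells. The cause of these changes was not tested. Langerhans cells, melanocytes and T cells were few, which limits the precision of their levels.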
